A study of Mus musculus with 12 samples.

Results

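Mitochondrial ribosomal protein genes were described in the hearts of mice with and without Rpl3l, which encodes the form of ribosomal protein Rpl3 made in heart and skeletal muscle. The members are the protein-coding genes of the GENCODE M21 mouse annotation (GRCm38) whose name starts with Mrpl or Mrps followed by a digit, matched by Ensembl identifier without its version. They numbered 78 of the 55401 genes listed, 49 named for the large subunit and 29 for the small subunit, on 17 chromosomes. The rule uses names and no expression value, though earlier results of these data were known when it was chosen.

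The libraries came from adult hearts of wild-type (WT) and Rpl3l-/- (KO) mice, 4 groups of 3 described as biological triplicates: WT Input, KO Input, WT IP and KO IP. For IP, hearts met cycloheximide, which holds ribosomes on mRNA, as they were excised, and were homogenised in a detergent buffer with heparin. Ribosomes were then pulled down with an antibody against the HA tag, and their RNA was purified on columns. For Input, RNA was taken from the homogenate with TRIzol. Poly(A) RNA of both kinds was read by nanopore sequencing of unamplified cDNA. The labels do not state the tagged protein or the cells that carry it, the strain, sex or exact age, or whether an Input and an IP library came from the same heart. In whole hearts, fewer cells of a type and less RNA per cell cannot be told apart.

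The mitochondrial ribosome translates only the few mRNAs of the mitochondrial genome, which encode core subunits of the respiratory chain, and the heart depends heavily on that chain. All of its proteins are encoded in the nucleus, made by cytosolic ribosomes and imported, so an IP library reads the members as cargo of the cytosolic ribosome. Some members have counterparts in bacteria and others occur only in mitochondria. The names do not always give the place of the protein: those of Mrps18a and Mrps30 sit in the large subunit, and that of Mrps36 is now known as a part of the 2-oxoglutarate dehydrogenase complex.

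Promoter windows are shown first, because the genes share letters there that their expression values did not use. RefSeq promoter sequences (GRCm38.p6, 250 bases before to 50 after each start) were matched by symbol for 69 of the 78 members, which gave 75 windows. Factors of the ETS family, NRF1 and YY1 are known regulators of nuclear genes for mitochondrial proteins, and exact words for their motifs were searched on both strands. Words can share end letters (the ETS word ends, and the YY1 word starts, with AAG), but in none of the windows did matches of different words do so. The ETS word CCGGAAG was in 34.7% of the members' windows and in 8.86% of all 32851 windows. The NRF1 word GCATGCGC was in 10.7% against 2.71%, and the YY1 word AAGATGGCG, shortened after a first search with a longer form, in 10.7% against 1.40%. At least 1 of these words was in 48.0% of the members' windows and in 12.1% of all. Like shares were found in related genes: 47.4% for cytosolic ribosomal protein genes and 38.0% for nuclear genes of respiratory chain subunits. In the same order, these held the NRF1 word in 3.95% and 14.1% and the YY1 word in 7.89% and 9.86%. The TATA word TATAAA was in 6.67% against 13.6%. Large and small subunit windows held the ETS word in 31.2% and 40.7%.

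The mRNAs of cytosolic ribosomal proteins are known for a terminal oligopyrimidine (TOP) start, a C followed by a run of C or T. A C at the RefSeq start followed by at least 4 such bases was in 0 of 75 members' windows, in 17.1% of 76 windows of cytosolic ribosomal protein genes and in 2.51% of all windows. For the ETS word these cytosolic genes stood at 35.5%, a share like that of the members. The TOP rule reads only the annotated RefSeq base. For Mrpl3, Mrps21 and Mrpl42 that base lay 29, 5 and 9 bases from the GENCODE 5′ end, and for Mrps36 at 0. The count of 0 is thus not read as absence of TOP starts.

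The windows below run from 90 bases before the RefSeq start to 30 bases from it, 5′ to 3′, with the ETS word in capitals. They show a low-level and a high-level member that hold the word and, after them, high-level members that do not. Mrpl3 lies at chr9:105053178-105053297, plus strand, Mrps21 at chr3:95871485-95871604, minus strand, Mrpl42 at chr10:95501920-95502039, minus strand and Mrps36 at chr13:100744630-100744749, minus strand.
Mrpl3: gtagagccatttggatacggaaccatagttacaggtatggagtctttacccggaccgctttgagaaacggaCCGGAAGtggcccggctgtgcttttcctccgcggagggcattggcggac
Mrps21: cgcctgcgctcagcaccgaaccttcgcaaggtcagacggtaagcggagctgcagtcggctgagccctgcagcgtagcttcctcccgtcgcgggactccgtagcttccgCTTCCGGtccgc
Mrpl42: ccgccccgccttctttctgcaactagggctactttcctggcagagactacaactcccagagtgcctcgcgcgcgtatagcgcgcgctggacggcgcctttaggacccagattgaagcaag
Mrps36: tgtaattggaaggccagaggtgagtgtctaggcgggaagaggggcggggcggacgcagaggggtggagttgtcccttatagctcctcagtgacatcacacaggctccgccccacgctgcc
The word lies before the start in Mrpl3, on the strand of the gene. In Mrps21 it lies on the other strand, within the first bases of the transcript. A match describes letters only, and no binding was measured here.

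Library totals ran from 169359 counts (KO Input 3) to 710868 (KO IP 2), and the 3 KO Input libraries were the shallowest. The members took 0.704% to 0.945% of each library, which is 1295 to 5329 counts. In the hearts labelled KO, Rpl3l read 27.0 to 68.5 CPM in Input and 2.33 to 8.31 CPM in IP, against 222 to 308 CPM and 269 to 275 CPM in WT. CPM, here and below, are library-size-normalised counts, scaled by TMM factors. Rpl3, the paralog that other tissues use, was higher in KO by 0.95 on the log2 scale in Input and by 1.35 in IP (adjusted p = 0.0102 and 0.000171, edgeR). In Input this call was lost without WT Input 1 or KO Input 1 (adjusted p up to 0.118). Of 8 cardiomyocyte markers, 7 were tested and together stood at 48569 to 64228 CPM. The other, Actc1, the cardiac actin gene, was listed at 0 in all 12 libraries, as were all 37 genes of the mitochondrial chromosome. A gene listed at 0 is therefore not read as silent.

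Of the 78 members, 73 passed the filter on low counts, 45 large and 28 small. Mrpl17, Mrpl33 and Mrpl53 were listed at 0 in every library. The annotated exons of Mrpl53 are covered to 88.0% by Gm42688 on the same strand, which had 29 to 95 counts per library. Mrpl10, a protein of the flexible stalk that recruits translation factors, had 2 to 15 counts per library and was not tested. Mrps18b, 1 of 3 paralogs that differ in their place on the ribosome, had 1 to 14 counts and was not tested either.

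Levels were compared between genes as CPM per kilobase of transcript (the median length of a gene's annotated protein-coding transcripts), in WT Input, with n = 3. Among large subunit genes, Mrpl42, a mitochondria-specific protein, was highest at 789 ± 50.4 CPM per kb (SD). Mrpl14, of a protein family found in all ribosomes, followed at 447 ± 12.3, Mrpl30 at 446 ± 63.6 and Mrpl52 at 389 ± 64.0. Of these last 3, Mrpl14 and Mrpl30 lay within each other's SD, as did Mrpl30 and Mrpl52. Mrpl52 lay below the SD range of Mrpl14. The median of the 45 was 63.7 CPM per kb. The lowest were Mrpl3, of the same protein family as Rpl3 and Rpl3l, at 12.9 ± 3.72, and Mrpl19 at 7.64 ± 1.02.

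Among small subunit genes, Mrps21 led with 761 ± 43.5 CPM per kb, then came Mrps36 with 535 ± 87.3, Mrps33 with 371 ± 48.1 and Mrps24 with 260 ± 19.4. The median of the 28 was 83.1. Mrps25 (15.3 ± 3.98) and Mrps2 (8.82 ± 5.10) were lowest. Levels thus spanned 103-fold in the large and 86.2-fold in the small subunit. Part of that span comes from the length by which counts are divided: as plain CPM the spans were 13.7-fold and 18.5-fold. Whether counts of these nanopore reads rise with transcript length was not tested, so the order per kb holds only under that division. Without division by length, 3 of the 4 leading large subunit genes and all 4 leading small subunit genes were the same.

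The other members named for their known roles ran from 18.6 to 151 CPM per kb. Mrpl44, which is linked to hypertrophic cardiomyopathy, read 55.4 ± 13.7 CPM per kb in WT Input. Mrps22 read 25.9 ± 6.91. Mrps12, at the decoding centre, stood at 135 ± 28.3, and Mrpl58, a hydrolase that frees peptides from stalled ribosomes, at 20.1 ± 4.24. Mrps18a read 151 ± 5.24, Mrps18c 99.2 ± 40.6 and Mrps30 18.6 ± 5.44.

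The order of members was much the same in all 4 groups. Across the 73 genes, Pearson's r of mean CPM was 0.962 between WT and KO Input, 0.969 between WT and KO IP, and 0.855 between WT Input and WT IP. These points share libraries and annotation, and genes are not independent replicates.

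The first question was whether loss of Rpl3l came with other levels of these mRNAs in the heart. No tested member differed between KO and WT Input at an adjusted p under 0.05 (edgeR quasi-likelihood test, Benjamini-Hochberg over all 6596 genes tested), where 0.182% of all genes did. At an unadjusted p under 0.05 there was 1 member, against 7.11% of all genes. The DESeq2 and limma-voom tests gave 0 members as well, here and in the other genotype comparisons below. The median log2 difference was 0.04 for the large subunit, -0.06 for the small subunit and -0.01 for all tested genes. The median half-width of a 95% confidence interval was 0.56 on the log2 scale, and for 59 of the 73 the whole 95% interval lay within a 2-fold change.

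The member with the smallest p was Mrpl27, whose bacterial counterpart reaches the peptidyl transferase centre. It read 89.7, 96.2 and 94.0 CPM in WT Input and 60.9, 61.6 and 45.5 CPM in KO Input. The groups did not overlap, with every KO library lower, but the difference of -0.71 (SE 0.29) had an adjusted p of 0.626. Mrps35 had a difference of 0.43 (SE 0.22, adjusted p = 0.721) and Mrps36 one of -0.39 (SE 0.21, adjusted p = 0.724). In all, 5 members were higher in every KO Input library than in every WT Input library and 1 was lower, where 6.17% and 6.20% of all genes did so.

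In IP, again no member differed between KO and WT, where 0.0910% of all genes did, and 4 had an unadjusted p under 0.05, against 5.20% of all genes. Mrpl20, of a bacterial protein family that binds ribosomal RNA early in assembly, read 184, 206 and 143 CPM in WT IP and 128, 96.8 and 113 CPM in KO IP. All KO libraries lay below all WT libraries. The difference was -0.67 (SE 0.20) with an adjusted p of 0.571. Mrpl37 differed by -0.59 (SE 0.26) and Mrpl21 by -0.54 (SE 0.23), both with an adjusted p of 0.920.

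Small differences in IP pointed mostly downwards. Of the 73 members, 52 had a negative difference and 21 a positive one, with medians of -0.11 for the large subunit, -0.06 for the small subunit and 0.00 for all genes. Under plain library totals all genes shifted together, to medians of 0.00, 0.05 and 0.11 in the same order. Both subunits thus still lay below the median of all genes. With the trend on transcript length removed from each library, the tilt was weaker, with 44 members negative and 29 positive. The median over members was then -0.05, against -0.10 before. With single libraries left out in turn, the large subunit median ran from -0.18 to -0.03. The small subunit median ran from -0.18 to 0.03, so its sign was not stable. Groups did not overlap for 9 members, all lower in KO, which is 12.3% of the 73 where 5.44% of all genes were lower in this way. Of the nuclear genes of respiratory chain subunits, 59 of 81 were negative and 11 (13.6%) were lower without overlap. For 64 of the 73, the interval lay within a 2-fold change. None of the 7 marker lists (cardiomyocyte, endothelial, fibroblast, macrophage, erythroid, adipocyte, smooth muscle) had a gene that passed the test by genotype. The 5 erythroid markers had medians of -1.19 in Input and -1.17 in IP. At an unadjusted p under 0.05 there were 2 of them in IP and 1 adipocyte marker in Input, and no other marker. Their part in the members' differences was not tested.

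Other members named for their known roles did not pass either. Mrpl3 read 47.4, 46.9 and 26.9 CPM in WT Input and 41.9, 30.8 and 5.68 CPM in KO Input. The last of these, KO Input 3, stands on 1 count in the shallowest library. Its difference was -0.55 in Input (95% interval -1.56 to 0.46) and -0.17 in IP (-1.21 to 0.87), an interval that holds a 2-fold lower level as well as no change. Mrpl44 differed by 0.53 in Input (-0.07 to 1.12) and by -0.16 in IP (-0.67 to 0.35). Mrps22 differed by -0.07 (-0.99 to 0.85) and -0.06 (-0.84 to 0.71), and Mrps12 by 0.27 (-0.20 to 0.75) and -0.14 (-0.56 to 0.28). Mrpl58 differed by 0.14 (-0.72 to 1.00) and -0.13 (-0.81 to 0.55).

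**Figure D1:**
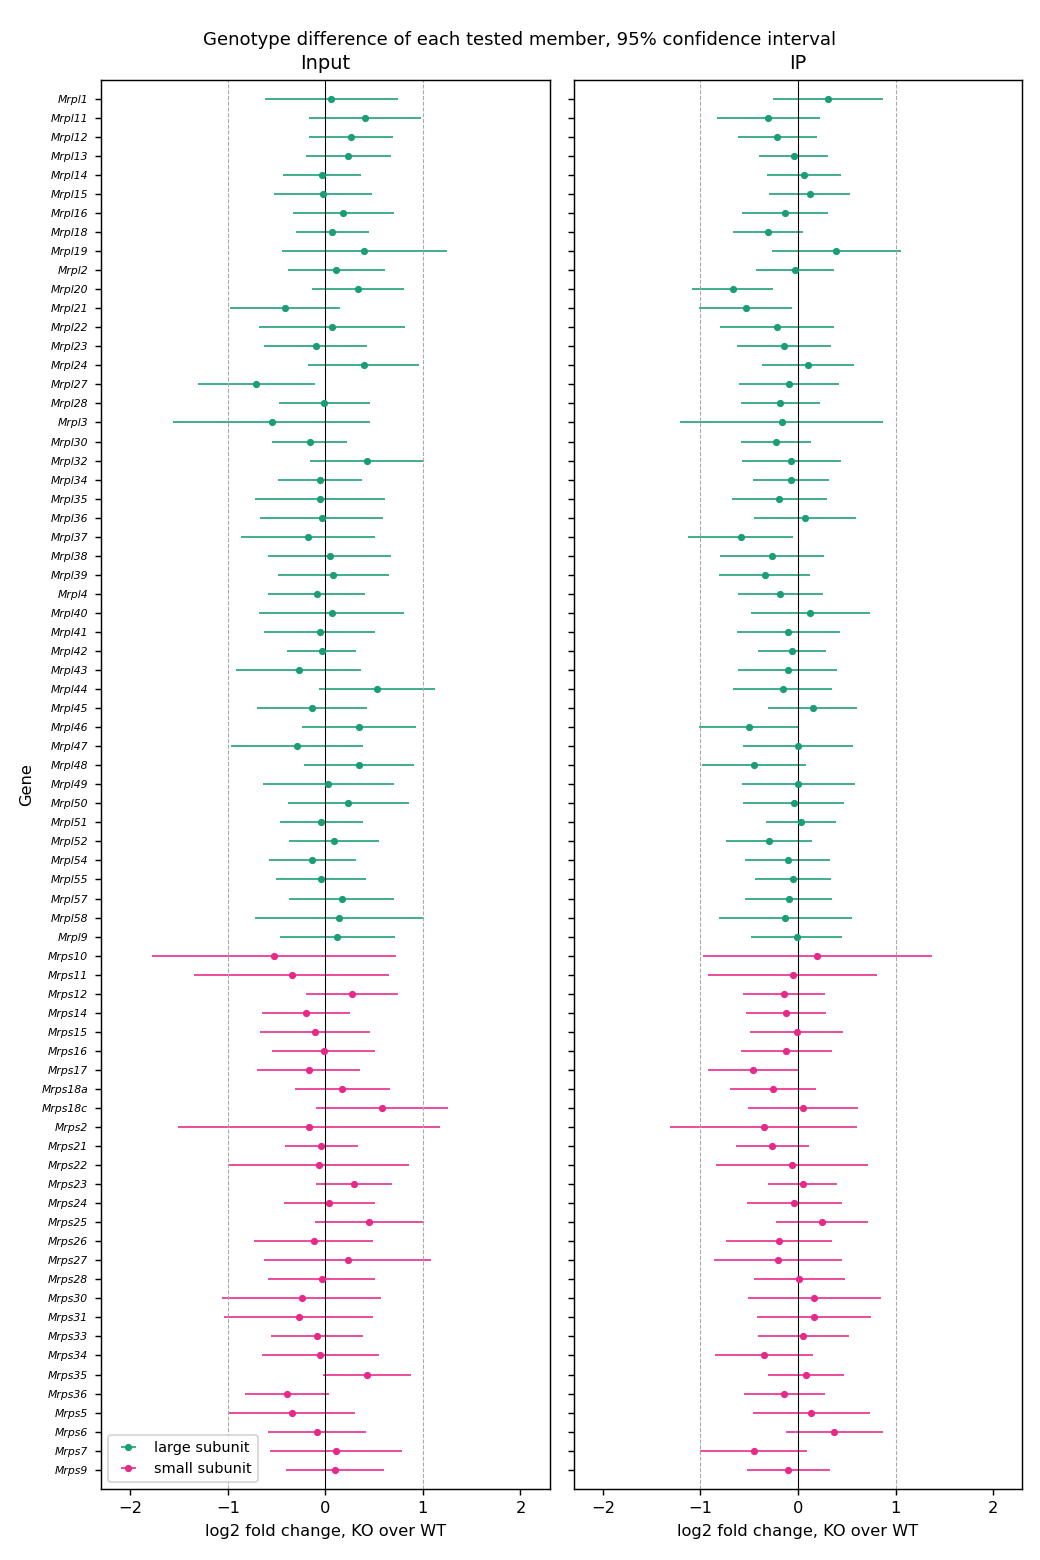
Log2 fold change of KO over WT for the 73 tested members in Input (left) and IP (right), with 95% confidence intervals. Large subunit genes are green and small subunit genes pink, and dashed lines mark a 2-fold change. Most points lie near 0, and more lie left of it in IP (52 of 73) than in Input (39 of 73).

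The second question was how the members' mRNAs differed between IP and Input, called recovery below. IP RNA was purified on columns and Input RNA with TRIzol, so pulldown and RNA purification cannot be told apart in these differences. In WT hearts, 10 of 73 members were lower in IP than in Input and none was higher (4 had a positive difference at an unadjusted p under 0.05, and DESeq2 and limma-voom gave none either), where 8.67% of all genes were lower and 5.37% higher. In KO hearts, 13 were lower and 1 was higher, where 9.78% and 6.64% were. The small subunit had 6 of 28 genes lower in WT and 5 of 28 in KO, and the large subunit 4 of 45 and 8 of 45. Medians in WT were 0.07 (large), -0.19 (small) and 0.02 (all genes), and in KO -0.15, -0.32 and 0.01. Under library totals the medians in WT were 0.16 (large), -0.11 (small) and 0.11 (all genes), and in KO 0.00, -0.18 and 0.15, so each subunit kept its side of the all-gene median.

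Lower in both genotypes were 8 members: Mrps24, Mrps21, Mrps6, Mrps33, Mrps36, Mrpl42, Mrpl54 and Mrpl14. They are 80.0% of the 10 lower in WT and 61.5% of the 13 lower in KO. WT and KO comparisons share no library, and over the 73 members their log2 differences had a Pearson's r of 0.746, against 0.658 over all tested genes.

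Mrps24, whose counterparts in other ribosomes line the path by which mRNA enters, had the smallest adjusted p in KO and WT alike. In WT it read 247, 281 and 249 CPM in Input and 111, 54.8 and 136 CPM in IP. In KO it read 286, 262 and 250 CPM in Input and 77.0, 111 and 101 CPM in IP. Every IP library lay below every Input library. The difference was -1.36 in WT (SE 0.23, 2.57-fold lower, adjusted p = 0.000145) and -1.44 in KO (SE 0.24, 2.72-fold lower, adjusted p = 0.000129), and it passed the threshold under all 24 alternatives in both. Its exons overlap Urgcp on the same strand over 15.4% of their length. The counting rule for such reads is not given, and Urgcp, with 3 to 46 counts per library, did not pass the test in WT (0.45, SE 0.40) or KO (0.88, SE 0.43).

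Mrps21, a small protein of bacterial descent, read 339, 321 and 359 CPM in WT Input and 187, 177 and 176 CPM in WT IP. In KO it read 400, 327 and 250 CPM in Input and 173, 153 and 126 CPM in IP. It was lower in IP by 1.88-fold in WT (-0.91, SE 0.18, adjusted p = 0.000822) and 2.20-fold in KO (-1.14, SE 0.19, adjusted p = 0.000134), without overlap of the groups.

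Mrps6 read 162, 126 and 114 CPM in WT Input and 60.7, 61.7 and 47.5 CPM in WT IP, and the groups lay far apart. The difference was -1.24 (SE 0.24, adjusted p = 0.000691) and passed under all 24 alternatives. In KO it read 126, 158 and 90.9 CPM in Input and 60.7, 72.0 and 86.4 CPM in IP. The KO groups lay closer together, the difference was -0.79 (SE 0.25, adjusted p = 0.0306), and the call was lost under 11 of 24 alternatives. Mrps6 overlaps Slc5a3 and Gm49711 on the same strand over 19.9% of its exons, and these had at most 7 counts in any library.

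Mrps33, specific to mitochondria, was lower in WT by 1.00 (SE 0.22, adjusted p = 0.00314) and in KO by 0.86 (SE 0.24, adjusted p = 0.0124). It read 227 to 292 CPM in WT Input and 122 to 151 CPM in WT IP. In KO the ranges of 171 to 335 CPM and 110 to 191 CPM overlapped. The KO call was lost without KO IP 2, KO IP 3 or KO Input 1 (adjusted p up to 0.177) and with thinned libraries. With the length trend removed, adjusted p for Mrps33 was 0.0935 in WT and 0.321 in KO. Mrps36 read 288 to 399 CPM in WT Input and 164 to 206 CPM in WT IP (-0.89, SE 0.20, adjusted p = 0.00281). With the length trend removed, its adjusted p in WT was 0.189. In KO it was lower by 0.64 (SE 0.21, adjusted p = 0.0390), with overlapping groups, and the call was lost under 15 of 24 alternatives. Mrps36 has 3 annotated pseudogenes, of which Mrps36-ps1 was listed at 0 to 53.1 CPM, so reads may be split between them.

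Mrpl42 was the member with the highest mean CPM in Input of both genotypes. It read 558, 493 and 514 CPM in WT Input and 290, 267 and 294 CPM in WT IP. In KO it read 659, 455 and 398 CPM in Input and 259, 258 and 299 CPM in IP. Both genotypes showed separate groups and like differences of -0.88 (SE 0.17, adjusted p = 0.000782) and -0.90 (SE 0.18, adjusted p = 0.000805).

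Mrpl54 and Mrpl14 are named as the rest of the genes lower in both, and were chosen after their values were seen. Mrpl54 was lower by 0.91 in WT (SE 0.21, adjusted p = 0.00359) and by 0.88 in KO (SE 0.22, adjusted p = 0.00768). The KO call was lost without KO IP 3 or KO Input 2 (adjusted p up to 0.0934), and the WT call with thinned libraries. With the length trend removed, adjusted p for Mrpl54 was 0.287 in WT and 0.508 in KO. Mrpl14 was lower by 0.72 in WT (SE 0.18, adjusted p = 0.00892) and by 0.63 in KO (SE 0.19, adjusted p = 0.0261). The WT call was lost without WT IP 3 (adjusted p = 0.0524) and with thinned libraries. With the length trend removed, adjusted p for Mrpl14 was 0.460 in WT and 0.869 in KO. The KO call was lost under 9 of 24 alternatives, among them those without KO IP 2, KO Input 1 or KO Input 2 (adjusted p up to 0.164).

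**Figure D2:**
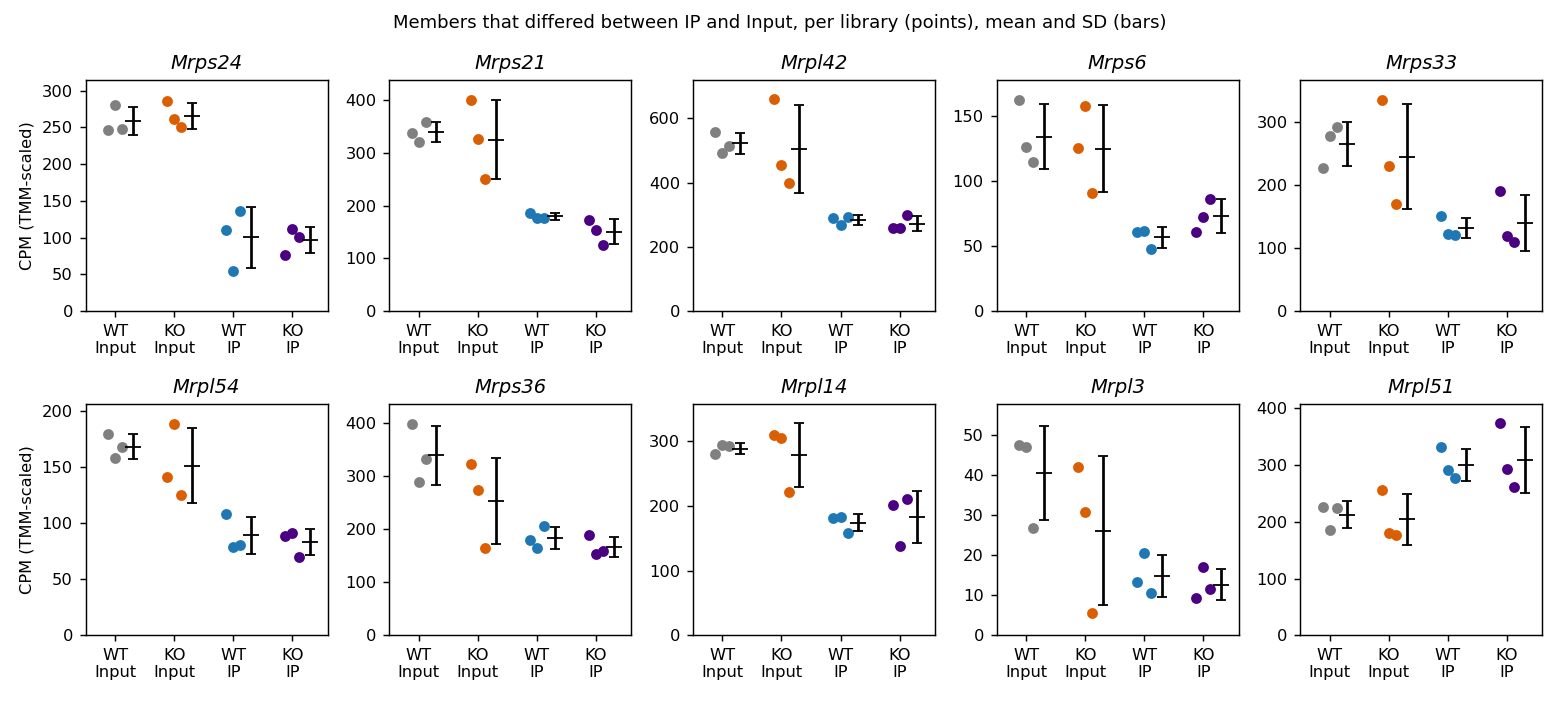
CPM in each of the 12 libraries (points) with mean and SD (bars) for the 8 members lower in IP in both genotypes, Mrpl3 and Mrpl51. IP libraries lie below Input libraries of the same genotype for Mrps24, Mrps21, Mrpl42, Mrps6, Mrpl54 and Mrpl14, and above them for Mrpl51.

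Lower in IP in 1 genotype were 7 further members. In WT these were Mrpl3 and Mrps5 (Mrps5 was named after its values were seen). Mrpl3 read 13.3, 20.6 and 10.6 CPM in WT IP, below all WT Input libraries given above. The difference was -1.46 (SE 0.46, adjusted p = 0.0346). In KO, where IP read 9.33, 17.0 and 11.6 CPM, it was -1.08 (SE 0.54, adjusted p = 0.185). The WT call was lost without any 1 of WT IP 1, WT IP 3, WT Input 1 and WT Input 2, the highest adjusted p being 0.138, and with the DESeq2 test. Mrps5 differed by -0.91 in WT (SE 0.29, adjusted p = 0.0347), lost under 9 of 24 alternatives, and by -0.44 in KO (SE 0.32, adjusted p = 0.383).

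In KO these were Mrpl48, Mrpl18, Mrpl52, Mrpl11 and Mrpl12. Mrpl48, specific to mitochondria, read 80.0, 131 and 108 CPM in KO Input and 39.7, 44.5 and 53.2 CPM in KO IP. All IP libraries were lower, by 1.20 (SE 0.28, adjusted p = 0.00355). The Mrpl48 call was lost with thinned libraries (adjusted p = 0.169). In WT it differed by -0.40 (SE 0.26, adjusted p = 0.326). Mrpl18, whose family binds the small RNA of the large subunit in other ribosomes, was lower in KO by 0.75 (SE 0.18, adjusted p = 0.00557) and differed in WT by -0.37 (SE 0.17, adjusted p = 0.162). Without KO Input 1 its adjusted p in KO was 0.0707, and with the length trend removed it was 0.0621. Mrpl52 was lower in KO by 0.90 (SE 0.23, adjusted p = 0.00755), with a WT difference of -0.51 (SE 0.21, adjusted p = 0.109). The KO call was lost without KO IP 2 or KO Input 1 (adjusted p up to 0.0663). With the length trend removed, the KO difference was -0.16 (adjusted p = 0.643).

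The stalk and its base held the 2 others. Mrpl11, of the stalk base, was lower in KO by 0.86 (SE 0.28, adjusted p = 0.0324) and differed in WT by -0.16 (SE 0.26). Its call was lost under 8 of 24 alternatives, among them the DESeq2 test and those without KO IP 2, KO IP 3, KO Input 1 or KO Input 2 (adjusted p up to 0.174). Mrpl12, of the stalk itself, was lower in KO by 0.63 (SE 0.21, adjusted p = 0.0390) and differed in WT by -0.15 (SE 0.20). Groups overlapped for Mrpl12, and its call was lost under 14 of 24 alternatives.

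Mrpl51, specific to mitochondria, was the 1 member higher in IP. It read 255, 181 and 176 CPM in KO Input and 373, 293 and 261 CPM in KO IP, with no overlap. The difference was 0.58 (SE 0.20, adjusted p = 0.0443), lost under 14 of 24 alternatives. In WT it read 227, 185 and 225 CPM in Input and 332, 291 and 276 CPM in IP, a difference of 0.50 (SE 0.18, adjusted p = 0.0696) that did not pass. Mrpl35 had the highest WT difference, 0.73 (SE 0.26, adjusted p = 0.0654), and was named after its value was seen.

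The count of 14 members in KO rested on single libraries. It was 6 without KO IP 2, 9 without KO IP 3, 6 without KO Input 1 and 7 without KO Input 2. The count of 10 in WT stayed between 7 and 11 when any 1 library was left out.

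Whether the genotypes differed in recovery was tested with the interaction of genotype and fraction. No member passed, where 0.0910% of all genes did, and 3 had an unadjusted p under 0.05, against 7.02% of all genes. Mrpl20 had the smallest p, with a WT difference between IP and Input of 0.43, a KO difference of -0.58 and an interaction whose 95% interval ran from -1.63 to -0.37 (SE 0.31, adjusted p = 0.423). For Mrpl46 the interaction was -0.85 (SE 0.38, adjusted p = 0.675) and for Mrpl48 -0.80 (SE 0.38, adjusted p = 0.710). For Mrps24 it was -0.08 (SE 0.33), and for Mrps6 0.46 (SE 0.34). Calls made in 1 genotype alone are thus not shown to differ between genotypes.

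Summed over members grouped by name, the sums for the subunits shifted unequally between fractions. The small subunit sum includes Mrps36, Mrps18a and Mrps30, whose proteins have their place elsewhere. Whether the ratio changes without them was not tested. Large subunit genes summed to 5614 ± 111 CPM in WT Input and 5203 ± 185 CPM in WT IP, and small subunit genes to 3511 ± 45.9 and 2708 ± 154 CPM (mean ± SD, n = 3). In KO the sums were 5668 ± 944 and 4792 ± 611 CPM for the large subunit, and 3446 ± 650 and 2603 ± 300 CPM for the small subunit. The ratio of large to small does not depend on library scaling. It was 1.62, 1.57 and 1.61 in WT Input, 1.61, 1.66 and 1.69 in KO Input, 1.90, 1.89 and 1.98 in WT IP, and 1.86, 1.81 and 1.85 in KO IP. All 6 IP libraries lay above all 6 Input libraries.

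The part of the members lower in both genotypes in these sums is given next. Mrps24, Mrps21, Mrps6, Mrps33 and Mrps36 held 33.8% to 39.7% of the small subunit sum in Input and 20.3% to 27.0% in IP. With the 8 members lower in both genotypes left out, the ratio was 2.06 to 2.19 in Input and 2.11 to 2.42 in IP, and the ranges overlapped. These 8 were chosen for lower values in IP, so a smaller share in IP and a smaller shift without them are partly built in by that choice. The shares and the ratio without them are a description only.

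**Figure D3:**
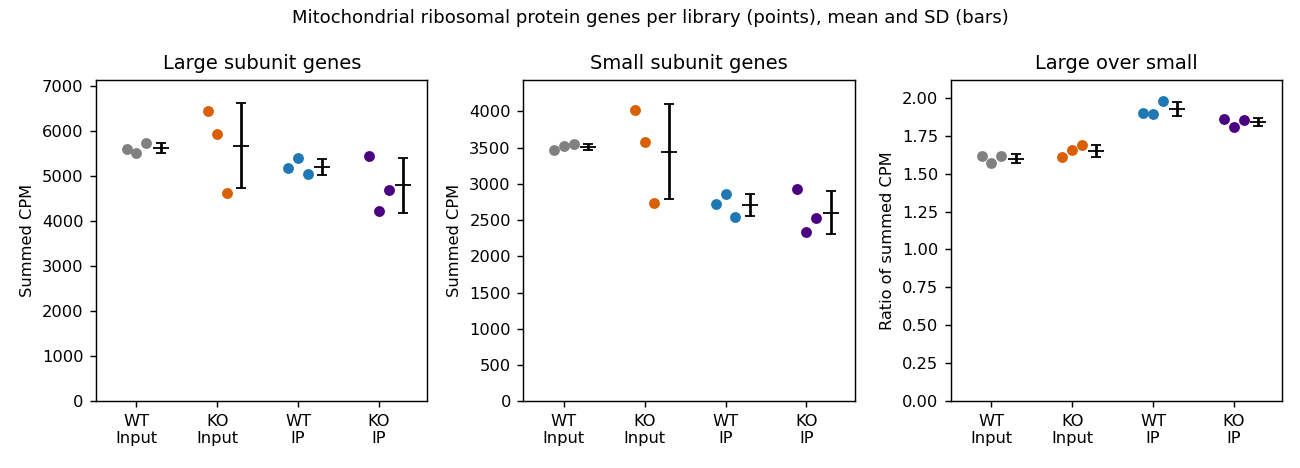
Summed CPM of large subunit genes (left) and small subunit genes (middle) and their ratio (right) in each library (points), with mean and SD (bars). Genes are grouped by name. The ratio is 1.57 to 1.69 in the Input libraries and 1.81 to 1.98 in the IP libraries.

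Recovery went with transcript length, for members as for other genes. Spearman's rho between length and the IP over Input difference was 0.325 in WT and 0.398 in KO over the 73 members, and 0.299 and 0.339 over 6594 tested genes with a length. Of the 11 members of up to 700 bases, 5 were lower in WT and 6 in KO, where 36.2% and 45.1% of all such genes were. Of the 16 between 700 and 1000 bases, 3 were lower in each genotype, where 28.9% and 30.2% of all were. Among the 18 between 1000 and 1500 bases, 0 and 2 were lower, where 12.1% and 13.7% of all were. Of the 13 members from 1500 to 2500 bases, 0 and 2 were lower, where 6.48% and 7.42% of all were. Of the 15 longer ones, 2 and 0 were lower, where 3.64% and 3.93% of all were, and 1 was higher in KO, where 9.31% of all were.

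With the trend on length removed from each library, 4 of the 10 members called in WT and 3 of the 14 called in KO kept their calls. In WT, 4 were lower (Mrps24, Mrps6, Mrps5 and Mrpl3) and 6 higher (Mrpl13, Mrpl2, Mrpl20, Mrpl22, Mrpl55 and Mrps18c), where 6.61% of all genes were lower and 5.23% higher. In KO, 3 were lower (Mrps24, Mrpl48 and Mrpl11) and 1 higher (Mrpl55), where 7.00% and 5.82% of all genes were. Mrpl13, Mrpl2, Mrpl22 and Mrpl55 are named after their values were seen. Mrps21 and Mrpl42, both short, were then -0.28 and -0.36 in WT and -0.39 and -0.32 in KO, and passed in neither. Genotype and interaction counts remained 0. Length of the RNA, of the reads and of the coding sequence cannot be told apart from one another in these data. Nor can the pulldown be told apart from the RNA purification that differed with it.

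**Figure D4:**
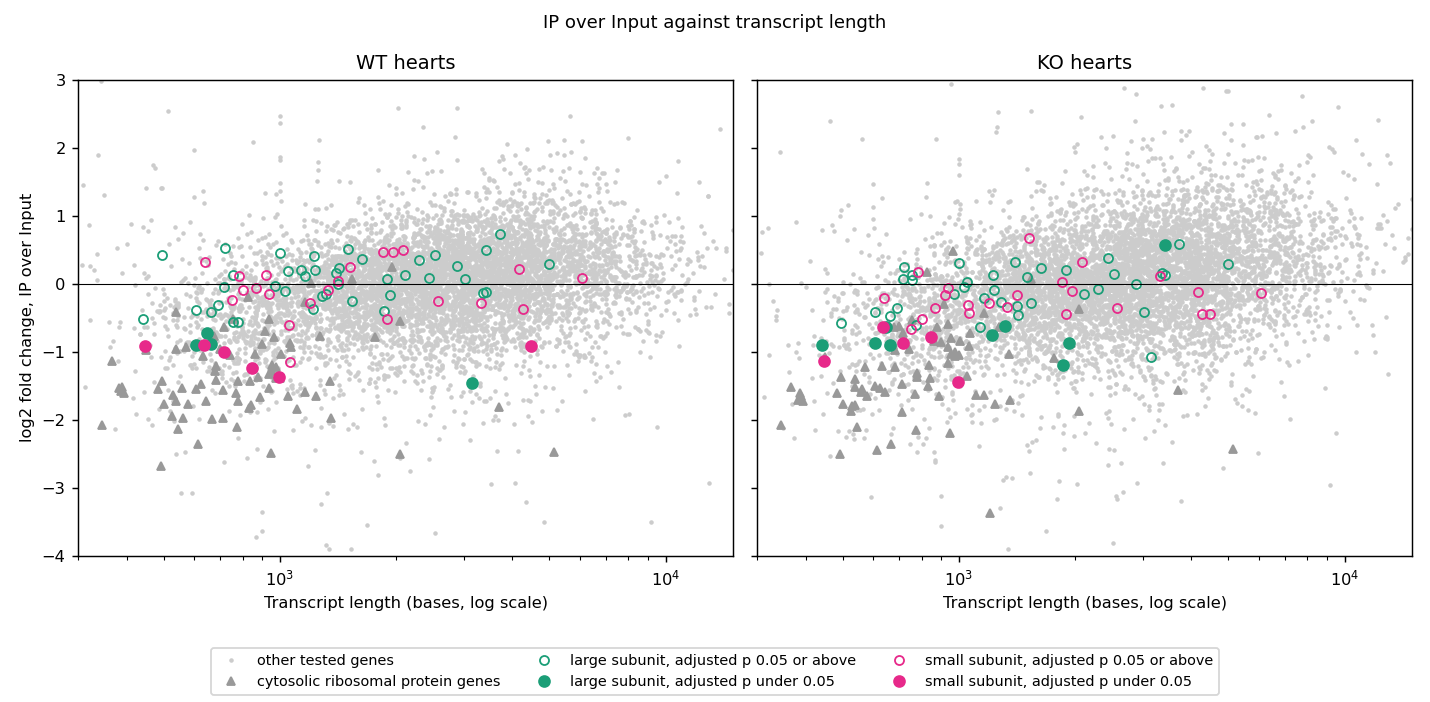
Log2 fold change of IP over Input against transcript length (log axis) in WT (left) and KO (right). Small gray points are other tested genes, triangles cytosolic ribosomal protein genes, and circles members (green large, pink small), filled where the adjusted p is under 0.05. Some other tested genes, and no member, lie outside the axes. Cytosolic ribosomal protein genes lie lower than members of like length.

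Other genes of nuclear origin gave a scale for these differences. Of 79 tested cytosolic ribosomal protein genes, 71 were lower in IP in WT and 72 in KO, with medians of -1.43 and -1.37. The 79 include Rpl3l, the deleted gene, which did not pass in WT (0.01) but counted as lower in KO (-3.37). Up to 700 bases the medians were -1.54 and -1.60 for 32 cytosolic ribosomal protein genes, against -0.51 and -0.63 for the 11 members of that length. Nuclear genes of respiratory chain subunits, whose proteins join those made by the mitochondrial ribosome, had 30 of 81 lower in WT and 34 in KO, with medians of -0.33 and -0.38. Below 700 bases, 18 and 23 of 36 were lower.

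Markers of adipocytes and endothelial cells moved with the fraction as well. Of 5 adipocyte markers, 3 were tested and all were lower in IP in both genotypes; the 5 summed to 118 to 846 CPM in Input and 16.3 to 70.4 CPM in IP. Of 6 endothelial markers, 1 was lower in WT and 3 in KO, with sums of 2219 to 3478 CPM in Input and 1516 to 2061 CPM in IP. Of 6 fibroblast markers none passed in WT (1 at an unadjusted p under 0.05) and 1 was lower in KO, with medians of 0.38 and 0.34. None of 4 tested macrophage, 5 erythroid and 2 smooth muscle markers passed in either genotype (1 smooth muscle marker in WT, and no other, had an unadjusted p under 0.05). Of 7 tested cardiomyocyte markers, 2 were lower in WT, and 1 was lower and 1 higher in KO. Their part in the members' differences was not tested.

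Beyond the members, 77 further genes of mitochondrial translation were followed in 5 lists, of which 58 were tested. None differed by genotype in Input or IP or in the interaction, and 1, 2 and 1 had an unadjusted p under 0.05. Ribosomal proteins under other names had 1 of 5 lower in IP: Chchd1, of the small subunit, by 1.20 in WT (SE 0.21, adjusted p = 0.000197) and 1.61 in KO (SE 0.22, adjusted p = 1.26e-05). It read 239 to 267 CPM in WT Input and 89.1 to 122 CPM in WT IP. Its WT call was lost with the length trend removed (adjusted p up to 0.0594), and its KO call passed under all 24 alternatives. The other 4 of this list (Dap3, Ptcd3, Aurkaip1 and Gadd45gip1) did not pass in either genotype.

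Translation factors had 0 of 10 past the threshold in WT (1 at an unadjusted p under 0.05) and 1 in KO. This was Gfm1, the elongation factor that moves the ribosome along, higher in IP by 0.92 (SE 0.23, adjusted p = 0.00637). With thinned libraries the Gfm1 call was lost (adjusted p = 0.0666). Of 14 aminoacyl-tRNA synthetases, which charge mitochondrial tRNAs, Iars2 was higher in WT by 0.86 (SE 0.23, adjusted p = 0.0143) and none passed in KO (1 at an unadjusted p under 0.05). The Iars2 call was lost without WT IP 1, WT Input 1 or WT Input 3 (adjusted p up to 0.0777) and with thinned libraries (adjusted p = 0.145). Of 18 genes for assembly and rRNA modification, 0 passed in WT (1 at an unadjusted p under 0.05) and Mterf3 was lower in KO by 1.29 (SE 0.37, adjusted p = 0.0159; up to 0.110 without KO IP 2, KO Input 2 or KO Input 3). Of 11 genes for transcription and mRNA handling, Hsd17b10, a subunit of the mitochondrial RNase P, was lower in WT by 1.08 (SE 0.22, adjusted p = 0.00141) and in KO by 0.84 (SE 0.24, adjusted p = 0.0194). The KO call was lost under 8 of 24 alternatives, among them those without KO IP 1, KO IP 2, KO Input 1 or KO Input 2 (adjusted p up to 0.135). Lrpprc, which stabilises mitochondrial mRNAs, was higher in WT by 0.76 (SE 0.25, adjusted p = 0.0394), a call lost under 9 of 24 alternatives.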

How the data were processed

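The deposited files hold 1 whole-number count per gene and library, made by the authors; per the submitters' processing notes, minimap2 2.14, DESeq2 1.34.0 and the build GRCm38 were used, with no roles named. The counting tool, its rule for overlapping genes and its use of strand are not given in the sources used here. Of 55401 identifiers, 55141 matched GENCODE M21 without their version.

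Counts were tested with edgeR 4.0.16 (R 4.3.3, limma 3.58.1) on all 12 libraries, with filterByExpr (minimum count 10, minimum total 15), TMM factors, a quasi-likelihood fit of 4 group means and 5 contrasts. P-values were adjusted by Benjamini-Hochberg over the 6596 genes tested, with a threshold of 0.05. Standard errors are the log2 difference over the square root of F. The fit was tested on simulated data. Nothing in the labels ties replicates to separate animals beyond the word triplicates, so p-values measure the spread between these libraries.

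A count of 0 allows up to 3 counts, which is 4.22 to 17.7 CPM, counting error only. Exons of 8 members overlap another gene on the same strand and those of 28 on the opposite strand. The members, the gene lists and the comparisons were chosen with earlier results of these data known. Named were, per contrast, up to 6 members past the threshold in each direction by smallest p (otherwise the 3 smallest p), per subunit the 4 highest and 2 lowest by CPM per kb, 13 members of known interest, and up to 3 genes past the threshold per further list.

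Same-numbered libraries of different groups had correlations of deviations from -0.115 to 0.0423. Deviations were taken from means of 3 shallow libraries, so these values cannot decide whether the numbers pair libraries. Alternatives were DESeq2 size factors, library totals, no or a stricter count filter (30 counts in 3 libraries), the DESeq2 1.42.0 and limma-voom tests, compared libraries alone, a replicate block, thinned libraries, globin genes left out, a removed length trend, and each library left out.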

Additional observations from a re-analysis of the deposited data

How the results depend on the processing

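No member passed the threshold by genotype in Input, in IP or in the interaction under any alternative run, DESeq2 and limma-voom tests included. The 10 members past it between IP and Input in WT ranged from 7 to 13 over all alternatives and from 7 to 11 with 1 library left out; with the length trend removed 4 of the 10 were still lower, and 6 other members were higher. The 14 in KO became 9 with library totals, with no count filter, with the DESeq2 test and with thinned libraries, and 8 with the compared libraries alone. They became 4 with the length trend removed and 6 with that trend on the longest transcript, a choice made after seeing the data. With 1 library left out they ranged from 6 to 15. Apart from the length trend, thinning and the smaller fits, the cause was not tested; those use other offsets, fewer counts or fewer libraries. With the replicate block the counts were 10 in WT and 13 in KO; a library correlated best with its own number in 0 of 18 cases. Counting Mrps18a and Mrps30 with the large subunit gave the same numbers of members past the threshold per subunit, and moved the large subunit median in WT from 0.07 to -0.01. Depth limits low members most: KO Input 3 held 1295 counts of all members together.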

Other observations

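Values outside the comparisons above came from genes that resemble members. Of 5 genes with an Mrpl or Mrps name that are not protein-coding, 3 had counts, 215 in all. Mrps36-ps1 held most of them and was listed at 0 in WT IP 1 but at 53.1 CPM in WT IP 2 and 47.5 CPM in WT IP 3, while its 6 Input libraries read 19.3 to 34.1 CPM.

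Gm42688, which covers most of the annotated exons of Mrpl53 on the same strand, was lower in IP by 1.16 on the log2 scale in WT (SE 0.23, adjusted p = 0.00105, edgeR) and by 0.96 in KO (SE 0.24, adjusted p = 0.00709). It was singled out after its values were seen. Whether its reads belong to Mrpl53 was not tested.

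Nme3, which overlaps Mrps34 on the same strand over 37.0% of its exons, was lower in IP in KO by 1.33 (SE 0.44, adjusted p = 0.0402) and differed in WT by 0.08 (SE 0.40, adjusted p = 0.925). It too was named after its values were seen. Mrps34 itself differed by 0.13 (SE 0.25) in WT and by -0.17 (SE 0.28) in KO.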
